A study of Mus musculus with 12 samples.

Results

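Transcripts of the SIK, class IIa HDAC, MEF2 and CRTC families were followed in the mouse osteocyte-like cell line Ocy454, which is immortalised. The 10 genes were chosen by symbol (Sik1, Sik2, Sik3, Hdac4, Hdac5, Mef2a, Mef2c, Mef2d, Crtc2 and Crtc3) and are 10 of the 11996 genes listed in any of the 3 deposited tables. All 10 were listed in every table. RNA sequencing covered 12 samples in 4 groups of 3: wild-type cells with parathyroid hormone (PTH), wild-type cells with PF431396, cells with a PDE8A knockout (PDE8A KO), and wild-type cells with vehicle. PF431396 inhibits focal adhesion kinase (FAK), and Pde8a encodes a phosphodiesterase that degrades cAMP. The value headers name DMSO for the KO and vehicle libraries and are silent on it for PTH and PF431396. The sources used here give no dose, no treatment time, no deleted part of Pde8a and no word on whether the KO line is 1 clone. Separate cultures are not named in the labels, so the spread that p-values measure may be technical.

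As background, PTH acts on osteocytes through its receptor PTH1R, which raises cAMP and activates protein kinase A (PKA). The salt-inducible kinases (SIKs), activated by LKB1, phosphorylate class IIa histone deacetylases (HDACs) and CRTC coactivators, and 14-3-3 proteins then hold these in the cytoplasm. PKA inhibits the SIKs, so HDAC4 and HDAC5 can enter the nucleus and bind MEF2 factors, and CRTC proteins can bind CREB. In osteocytes, MEF2C drives Sost, which encodes sclerostin, and CRTC2 takes part in the control of Tnfsf11, which encodes RANKL. RNA sequencing measures transcripts of these genes, and neither phosphorylation nor protein location was measured here.

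Sequences just upstream of the gene starts are shown for 4 genes: Sik3 and Hdac4, whose transcripts were higher with PTH, and Hdac5 and Mef2a, which hold a match to a MEF2 motif. RefSeq promoter windows (GRCm38.p6, 250 bases before to 50 after the annotated start) were found for 8 of the 10 genes, and those of Sik1 and Crtc2 were not used here. Capitals mark matches, on either strand, to the core TGACG of a cAMP response element (the motif bound by CREB) or to the MEF2 motif CTANNNNTAG. The windows are chr9:46012570-46012869 (plus strand) for Sik3, chr1:92180292-92180591 (minus strand) for Hdac4, chr11:102230123-102230422 (minus strand) for Hdac5 and chr7:67372809-67373108 (minus strand) for Mef2a. The RefSeq start of Hdac4 lies 15358 bases inside the GENCODE gene, so this window is that of an internal start.
Sik3: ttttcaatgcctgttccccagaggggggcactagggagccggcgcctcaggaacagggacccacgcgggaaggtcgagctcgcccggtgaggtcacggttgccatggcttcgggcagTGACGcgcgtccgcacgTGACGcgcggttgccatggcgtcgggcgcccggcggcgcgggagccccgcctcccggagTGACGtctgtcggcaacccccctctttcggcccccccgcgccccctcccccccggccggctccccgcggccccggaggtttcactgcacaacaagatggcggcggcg
Hdac4: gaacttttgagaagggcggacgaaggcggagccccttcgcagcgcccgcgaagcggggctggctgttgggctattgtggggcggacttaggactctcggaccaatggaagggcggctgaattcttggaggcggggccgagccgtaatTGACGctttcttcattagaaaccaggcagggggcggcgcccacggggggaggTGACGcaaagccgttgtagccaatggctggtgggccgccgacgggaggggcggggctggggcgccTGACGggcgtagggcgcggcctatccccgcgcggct
Hdac5: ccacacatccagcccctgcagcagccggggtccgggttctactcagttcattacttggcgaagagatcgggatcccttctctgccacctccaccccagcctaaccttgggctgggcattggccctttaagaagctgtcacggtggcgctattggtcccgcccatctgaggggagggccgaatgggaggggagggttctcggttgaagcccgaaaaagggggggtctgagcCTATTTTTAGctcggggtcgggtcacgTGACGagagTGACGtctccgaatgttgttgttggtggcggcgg
Mef2a: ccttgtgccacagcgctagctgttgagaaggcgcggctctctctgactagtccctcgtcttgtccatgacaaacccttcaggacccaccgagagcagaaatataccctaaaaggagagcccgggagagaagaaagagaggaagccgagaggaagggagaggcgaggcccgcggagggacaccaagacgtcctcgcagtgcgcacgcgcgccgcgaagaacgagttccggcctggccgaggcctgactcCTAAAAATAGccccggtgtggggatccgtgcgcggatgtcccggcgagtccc

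Sik3 and Hdac4 each held 3 matches to TGACG, a number that 1.03% reached or passed among 32851 mouse promoters in the same table. The matches began at -133, -116 and -57 in Sik3 and at -103, -51 and 15 in Hdac4, counting the start base as 1 and leaving out 0. Sik2 and Hdac5 held 2 matches each. Of all promoters, 5.01% held 2 or more and 20.8% held 1 or more. The full palindrome TGACGTCA, whose letters contain the shorter motif, was in none of the 8 genes' windows and in 1.79% of all promoters. The MEF2 motif was in Hdac5 at -20 and in Mef2a at -2, and in 3.69% of all promoters. None of these motifs was found in the windows of Mef2c, Mef2d and Crtc3. A match describes letters in the window and does not show that a factor binds there.

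Levels are the authors' normalised estimated counts, scaled separately in each table, and a log2 fold change is that of the group over vehicle on the log2(value + 1) scale, with its SE. A gene was called when its limma adjusted p, taken over all genes of the table, was below 0.05 and its log2 fold change at least 1 in either direction. Whether the libraries of 2 groups overlap is given as a description only, since its share over all genes was not computed. Each library held between 27712551 and 35747425 estimated counts, and the lowest estimated count of any listed gene was 11. PF431396 libraries 1 and 3 had identical values in all 11484 genes, so they were counted as 1 sample (n = 2). Mitochondrial transcripts took 11.8% or more of counts with PF431396, against 3.89% to 5.19% in vehicle libraries of that table. Pde8a transcripts in the KO libraries were 2074, 2438 and 2037, against 3100, 2579 and 2890 in vehicle, a log2 fold change of -0.39 ± 0.14 that missed the threshold (limma adjusted p = 0.0681). Of 7 osteocyte markers, Dmp1, Phex, Pdpn and Gja1 were listed and Sost, Mepe and Fgf23 were not. The 4 listed markers did not move together. In KO, Phex (log2 fold change -3.86) and Dmp1 (-2.84) were called lower and Pdpn (2.45) higher, and the Dmp1 call ended without KO library 2 or 3. With PTH, Pdpn (2.91) and Gja1 (2.16) were called higher. Leaving out PTH library 3 ended the call of Pdpn, and leaving out any PTH library that of Gja1. Dmp1 was at -1.17 and Phex at -0.24 with PTH, both uncalled. Without vehicle library 1, Dmp1 was called lower with PTH at -1.81 (limma adjusted p = 0.00460). The sum of the 4 listed markers, most of it Gja1, was 13796 to 14860 with PTH, against 2014 to 5894 in vehicle. In KO the sum was 5752 to 7620, against 2003 to 5936 in vehicle. All 7 osteoblast markers were listed. In KO, 4 of them were called lower (Ibsp at -6.42, Sp7 at -3.97, Alpl at -2.95 and Bglap at -1.71), where 11.5% of all genes were called. Col1a1 (-0.13) and Spp1 (0.74) were uncalled in KO. Runx2 was also called lower in KO without vehicle library 1 (-1.49), while without KO library 1 the Sp7 and Bglap calls ended. With PF431396, Spp1 (2.29) and Bglap (1.72) were called higher, where 26.2% of all genes were called. The Bglap call ended without either PF431396 library. Without vehicle library 1, 3 of the 7 were called higher with PF431396 and 1 lower, beside 25.4% of all genes called. The gene called lower was Sp7, at -2.02 (limma adjusted p = 0.000401). With all libraries the Sp7 value with PF431396 was also negative but uncalled (limma adjusted p = 0.413). With PTH, Sp7 was at -1.57, uncalled (limma adjusted p = 0.262), and was called lower at -2.58 without vehicle library 1 (limma adjusted p = 1.87e-06). The remaining osteoblast markers were positive and uncalled with PTH: Bglap (1.20), Spp1 (1.09), Alpl (0.70), Col1a1 (0.58), Runx2 (0.53) and Ibsp (0.37). Without vehicle library 1, Bglap (0.85) and Spp1 (0.76) were higher and Ibsp (-0.37) lower with PTH at an adjusted p below 0.05 alone. Col1a1 was then at -0.06. Vehicle library 1 was low in some of these markers too, with Ibsp at 6232 in the PTH table, against 27700.0 and 30578 in vehicle libraries 2 and 3, and Alpl at 4494, against 16829 and 20028. No adipocyte or endothelial marker was listed. Of 4 chondrocyte markers only Sox9 was listed, called higher with PTH (1.33) and in KO (1.33), both calls lost in some runs with 1 library left out. Of 6 muscle markers Acta1 and Des were listed. In KO, Acta1 was called lower (-5.85) and Des higher (1.24), the Des call ending without vehicle library 3 or any single KO library. With PTH, Acta1 was at -1.97, uncalled, and was called lower at -1.25 without vehicle library 1. The summed level of the 2 listed macrophage and osteoclast markers (Cd68 and Ctsk, of 5) was 3703 to 4809 with PF431396, against 708 to 865 in vehicle. It was 1685 to 3300 in KO, against 869 to 1073 in vehicle. The part of other cells in the results below was not tested, and in bulk RNA fewer cells of a kind and less RNA per cell cannot be told apart.

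Vehicle library 1 stood apart from vehicle libraries 2 and 3, and among the 10 genes this was largest for Mef2c, which encodes the MEF2 factor best known for driving Sost. In the PTH table Mef2c was at 2912 in vehicle library 1, against 11175 and 11639 in libraries 2 and 3. The ratio of library 1 to the mean of the others was 0.255, 0.250 and 0.252 in the PTH, PF431396 and KO tables, which hold the same vehicle libraries. At most 1.90% of genes in any table lay as far from vehicle libraries 2 and 3. The remaining 9 genes deviated in library 1 by log2 0.53 or less in either direction, within the 0.72 SD of all genes in the PTH table. Between libraries 2 and 3 that SD was 0.27. The changes of the 10 genes are therefore given with all vehicle libraries and, where a call or direction differs, also without library 1.

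**Figure D1:**
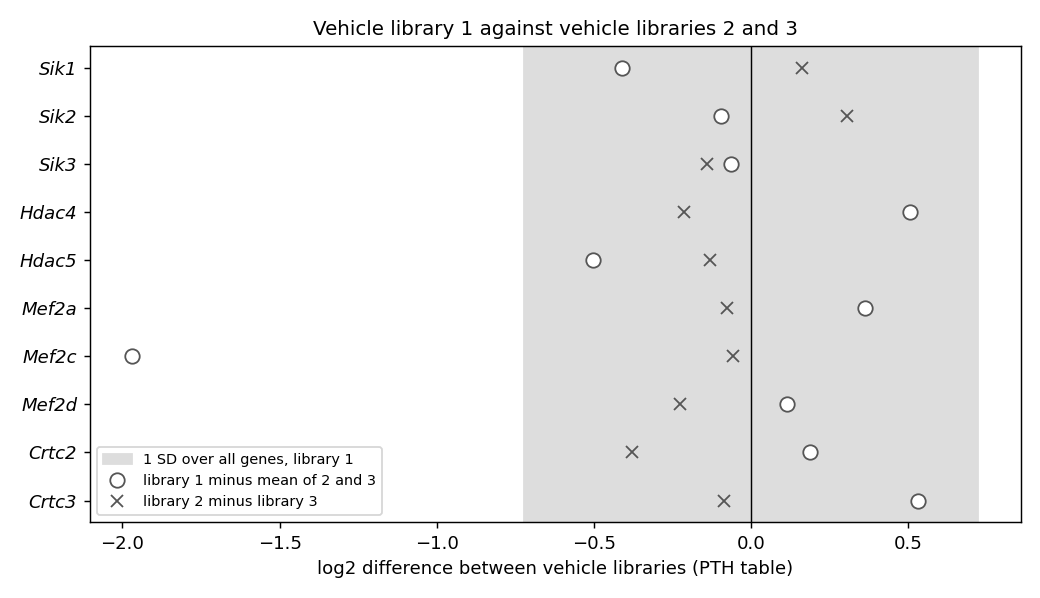
Differences between vehicle libraries in the PTH table, on the log2 scale, for each of the 10 genes: open circles are library 1 minus the mean of libraries 2 and 3, crosses are library 2 minus library 3, and the grey band is 1 SD over all genes of the library 1 difference (0.72). Mef2c lies at -1.97 and the other 9 genes lie inside the band.

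With PTH, 2 of the 10 genes were called, Sik1 and Hdac4, both higher, where 3.87% of the 11775 genes tested were called and 2.86% were called higher. The median log2 fold change of the 10 genes was 0.18, beside 0.00 for all genes. Without vehicle library 1 the calls were 2 higher and 1 lower, the added gene being Mef2c, with 5.21% of all genes called (3.18% higher and 2.03% lower). At an adjusted p below 0.05 alone, 3 of the 10 were higher and none lower, beside 7.71% of all genes and 5.36% higher. Leaving out vehicle library 1 gave 3 higher and 2 lower, beside 30.8% of all genes (18.0% higher and 12.9% lower). With PF431396, 1 of the 10 was called, Sik1, lower, while 26.2% of 11484 genes were called and 15.2% were called lower. The median was -0.24 for the 10 genes and -0.02 for all genes, and without vehicle library 1 the same gene was called, beside 25.4% of all genes and 15.0% lower. At the p threshold alone, 3 of the 10 were lower, beside 37.1% of all genes and 20.3% lower. Leaving out vehicle library 1 gave 1 higher and 5 lower, beside 49.1% of all genes (23.9% higher and 25.2% lower). In PDE8A KO cells limma called none of the 10, where 11.5% of 11592 genes were called, and 4 of the 10 had an unadjusted p below 0.05, beside 42.1% of all genes. At an unadjusted p below 0.05 there were also 4 of the 10 with PTH, beside 24.3% of all genes, and 5 with PF431396, beside 49.3%. The KO median was -0.08 for the 10 genes and -0.00 for all genes. Mef2c was called lower in KO once vehicle library 1 was left out, beside 12.1% of all genes and 6.09% lower. At the p threshold alone, KO had Crtc2 higher and Mef2a lower, beside 27.8% of all genes (14.6% higher and 13.2% lower). Leaving out vehicle library 1 gave 2 higher and 2 lower, beside 45.4% (23.2% higher and 22.2% lower).

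Scaling all libraries to the same total moved the median of all genes to -0.12 with PTH, -0.55 with PF431396 and -0.01 in KO. The share of calls that were higher went with it: 62.6% in place of 73.9% with PTH and 9.02% in place of 41.8% with PF431396. PF431396 changes below are therefore also given on the equal-total scale where the call or the direction differs.

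**Figure D2:**
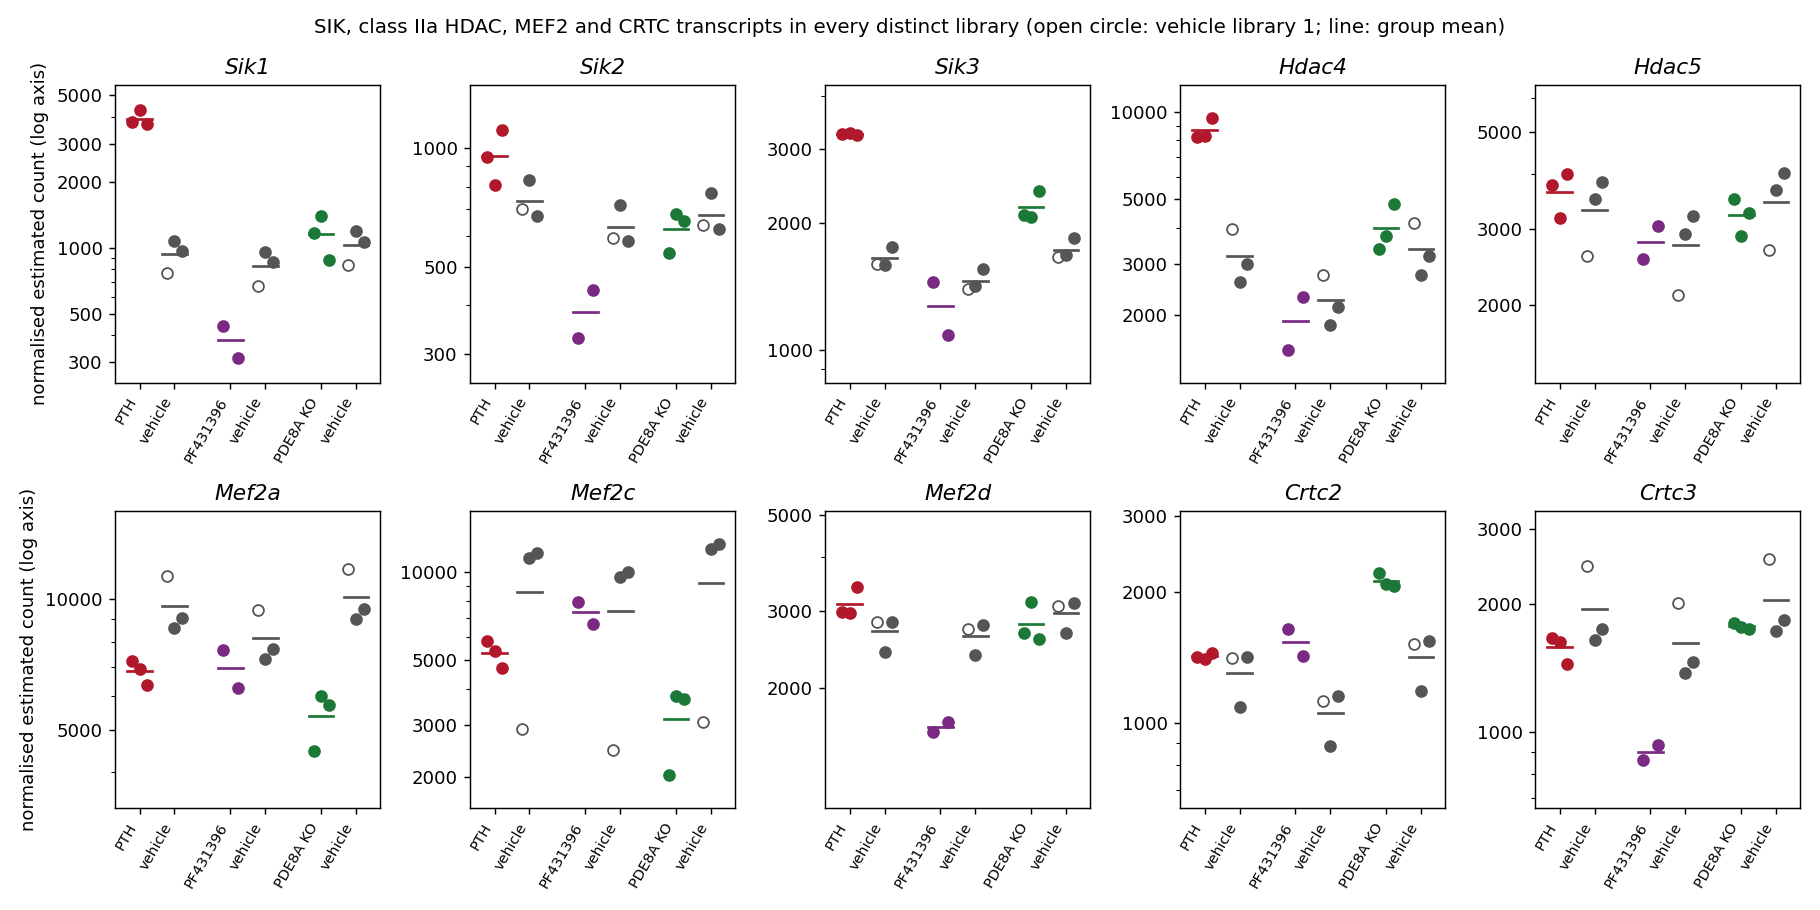
Normalised estimated count (log axis) of each gene in every distinct library, in 1 panel per gene; each group stands left of the vehicle libraries of its own table, open circles are vehicle library 1 and lines are group means. The tables were scaled separately. Against the vehicle of their own table, Sik1 and Hdac4 are higher with PTH, Sik1 is lower with PF431396 and Crtc2 is higher in PDE8A KO, and the open circle of Mef2c lies far below the other vehicle libraries.

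Among the kinases, Sik1 and Sik3 transcripts were higher with PTH and Sik1 transcripts were lower with PF431396, while in KO no SIK passed the threshold with all vehicle libraries. Sik1 (GRCm38 chr17:31844250-31855804, minus strand) encodes the SIK whose own transcription is known to be induced by cAMP. It had 3760, 4291 and 3686 normalised estimated counts with PTH, against 769, 1081 and 967 in vehicle. All PTH libraries were above all vehicle libraries, with means of 3912 ± 330 and 939 ± 158 (SD, n = 3 each). This was a log2 fold change of 2.07 ± 0.15 (limma adjusted p = 0.000611), and 1.93 ± 0.09 without vehicle library 1 (limma adjusted p = 1.90e-06).

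With PF431396, Sik1 was at 442 and 315, against 671, 962 and 860 in vehicle. Both PF431396 libraries were below every vehicle library. The change was -1.14 ± 0.27 on the log2 scale (limma adjusted p = 0.0213), and -1.67 on the equal-total scale (limma adjusted p = 0.00413). The call was lost without vehicle library 2, vehicle library 3 or PF431396 library 2. With any single library left out, values lay between -1.38 and -0.89 and adjusted p reached 0.100 in limma. In KO, Sik1 was at 1171, 1409 and 886, against 837, 1193 and 1067 in vehicle, and the groups overlapped. Its log2 fold change of 0.15 ± 0.21 missed the threshold (limma adjusted p = 0.620).

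Sik3 (GRCm38 chr9:46012820-46224194, plus strand) encodes a SIK that is expressed in cartilage and bone and whose loss in mice disturbs skeletal growth. It had 3251, 3267 and 3225 with PTH, against 1599, 1594 and 1755 in vehicle. The groups did not overlap, and the PTH mean was 3248 ± 21.5 (SD, n = 3). Sik3 had a log2 fold change of 0.98 ± 0.10 (limma adjusted p = 0.00187), just under the fold threshold, and 1.02 without vehicle library 3, where it was called. In KO, Sik3 was at 2088, 2069 and 2386, against 1660, 1676 and 1846 in vehicle, with all KO libraries above. This change of 0.33 ± 0.13 had a limma adjusted p of 0.0843, and of 0.0495 without vehicle library 1. With PF431396 the values were 1451 and 1088, against 1393, 1416 and 1560, and the groups overlapped (limma adjusted p = 0.430). On the equal-total scale this Sik3 change was -0.74 (limma adjusted p = 0.0241).

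Sik2 (GRCm38 chr9:50892801-51009073, minus strand) encodes the third SIK, and its transcripts had the lowest level per kilobase of the 10 genes in every group. It had 331 and 437 with PF431396, against 592, 718 and 582 in vehicle. Both PF431396 libraries were below all vehicle libraries, but the log2 fold change of -0.72 ± 0.25 missed the threshold (limma adjusted p = 0.0633). Without vehicle library 1 it was -0.76 (limma adjusted p = 0.0487), and on the equal-total scale -1.25 (limma adjusted p = 0.00821). With PTH, Sik2 was at 950, 806 and 1114, against 700, 832 and 673, and in KO at 542, 680 and 656, against 641, 772 and 625. The groups overlapped in both comparisons, with log2 fold changes of 0.37 ± 0.17 with PTH and -0.12 ± 0.17 in KO (limma adjusted p = 0.222 and 0.624).

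Of the 2 class IIa HDACs, the SIK substrates that bind MEF2 factors, Hdac4 transcripts were higher with PTH and Hdac5 transcripts did not pass the threshold in any comparison. Hdac4 (GRCm38 chr1:91928779-92195699, minus strand) had 8209, 8262 and 9570 with PTH, against 3957, 2588 and 2998 in vehicle. The lowest PTH library was above the highest vehicle library, with means of 8680 ± 771 and 3181 ± 702 (SD, n = 3 each). Hdac4 had a log2 fold change of 1.47 ± 0.17 (limma adjusted p = 0.00347), and 1.64 ± 0.09 without vehicle library 1 (limma adjusted p = 5.46e-06).

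In KO, Hdac4 was at 3381, 3749 and 4825, against 4146, 2747 and 3183 in vehicle, and the groups overlapped through vehicle library 1. Its log2 fold change was 0.25 ± 0.20 (limma adjusted p = 0.369), and 0.41 ± 0.15 without that library (limma adjusted p = 0.0502). With PF431396 it was at 1512 and 2299, against 2752, 1836 and 2128, and the groups overlapped. This change of -0.24 ± 0.26 missed the threshold (limma adjusted p = 0.489).

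Hdac5 (GRCm38 chr11:102194432-102230166, minus strand) had 3774, 3183 and 4000 with PTH, against 2593, 3513 and 3849 in vehicle. With PF431396 it had 2559 and 3042, against 2115, 2921 and 3203. In KO it had 3514, 2888 and 3268, against 2682, 3678 and 4032. The groups overlapped in each comparison, and vehicle library 1 was the lowest vehicle library throughout. The log2 fold changes were 0.15 ± 0.17, 0.04 ± 0.22 and -0.09 ± 0.18 with PTH, with PF431396 and in KO, and -0.02, -0.13 and -0.26 without vehicle library 1. None passed the threshold in limma, the smallest adjusted p being 0.0835 in KO without that library.

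The MEF2 genes encode the DNA-binding partners of class IIa HDACs. Mef2a transcripts fell in KO and Mef2d transcripts fell with PF431396, both under the fold threshold, and Mef2c was called with PTH and in KO once vehicle library 1 was left out. Mef2c (GRCm38 chr13:83504034-83667080, plus strand) had 2028, 3778 and 3690 in KO, against 3085, 11988 and 12493 in vehicle. Every KO library was below vehicle libraries 2 and 3, and 2 of the 3 were above vehicle library 1. With all vehicle libraries the log2 fold change was -1.34 ± 0.53 (limma adjusted p = 0.0957). It was -2.01 ± 0.24 without vehicle library 1 (limma adjusted p = 0.000221), and the gene was called. In the authors' deposited table the KO value of Mef2c was -1.54, with an adjusted p of 0.00255. The deposited adjusted p was also below 0.05, where that of limma was not, for Mef2a with PTH (0.0226) and for Sik2 (0.00113) and Crtc2 (0.00296) with PF431396. With all 3 PF431396 libraries counted, limma passed Sik2 and Crtc2 at the p threshold too. Outside the 10 genes, the deposited value of Hdac9 with PTH was -2.14 (deposited adjusted p = 0.0151).

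With PTH, Mef2c had 5809, 5390 and 4702, against 2912, 11175 and 11639 in vehicle. The PTH libraries lay close together, between vehicle library 1 and the other vehicle libraries. Its log2 fold change was -0.45 ± 0.51 (limma adjusted p = 0.626), and -1.11 ± 0.09 without vehicle library 1 (limma adjusted p = 3.80e-05), where it was called. With PF431396, Mef2c was at 7919 and 6674, against 2466, 9649 and 10058. Its log2 fold change was 0.23 ± 0.60 (limma adjusted p = 0.787) with all vehicle libraries. Without vehicle library 1 the sign was opposite, -0.44 ± 0.10 (limma adjusted p = 0.0181), under the fold threshold.

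Mef2a (GRCm38 chr7:67231163-67372858, minus strand) encodes a broadly expressed MEF2 factor. It had 4493, 6007 and 5723 in KO, against 11778, 9027 and 9518 in vehicle, and all KO libraries were below. Mef2a had a log2 fold change of -0.90 ± 0.16 (limma adjusted p = 0.00717), and -0.79 without vehicle library 1 (limma adjusted p = 0.00130), so Mef2a fell at the p threshold but not at the fold threshold. With PTH it had 7236, 6916 and 6367, against 11350, 8591 and 9053, again with no overlap. This log2 fold change of -0.49 ± 0.13 missed the threshold (limma adjusted p = 0.0724). Without vehicle library 1 it was -0.37 ± 0.07 (limma adjusted p = 0.00389). With PF431396 the values were 7651 and 6245, against 9462, 7304 and 7703, and the groups overlapped (limma adjusted p = 0.342). On the equal-total scale the PF431396 change was -0.76 (limma adjusted p = 0.0181).

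Mef2d (GRCm38 chr3:88142372-88172086, plus strand), the remaining MEF2 gene listed in every table, had 1584 and 1669 with PF431396, against 2733, 2380 and 2786 in vehicle. Both PF431396 libraries were below all vehicle libraries. Mef2d thus fell with a log2 fold change of -0.69 ± 0.16 (limma adjusted p = 0.0196), under the fold threshold, and -1.22 on the equal-total scale (limma adjusted p = 0.00259). Its adjusted p in limma was up to 0.0849 with 1 library left out, and only leaving out vehicle library 1 kept it under the threshold. With PTH it had 2993, 2974 and 3407, against 2835, 2421 and 2831, all above vehicle by a log2 fold change of 0.21 ± 0.12 (limma adjusted p = 0.307). In KO it had 2679, 3145 and 2589, against 3093, 2675 and 3131, and the groups overlapped (limma adjusted p = 0.673).

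The CRTC genes encode coactivators that SIKs keep out of the nucleus. Crtc2 transcripts were higher in KO and Crtc3 transcripts were lower with PF431396, both under the fold threshold. Crtc2 (GRCm38 chr3:90254163-90264125, plus strand) had 2215, 2093 and 2062 in KO, against 1523, 1188 and 1546 in vehicle. All KO libraries were above all vehicle libraries, with means of 2123 ± 81.0 and 1419 ± 200 (SD, n = 3 each). Crtc2 rose by a log2 fold change of 0.59 ± 0.15 (limma adjusted p = 0.0214), and 0.65 ± 0.13 without vehicle library 1 (limma adjusted p = 0.00362). The p threshold was missed without vehicle library 2 or any single KO library, with values of at least 0.47 and a limma adjusted p of up to 0.0803.

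With PF431396, Crtc2 had 1645 and 1425, against 1126, 885 and 1152 in vehicle, with no overlap. The log2 fold change of 0.55 ± 0.21 missed the threshold (limma adjusted p = 0.0765), was 0.60 without vehicle library 1 (limma adjusted p = 0.0452) and was 0.02 on the equal-total scale (limma adjusted p = 0.959). With PTH, Crtc2 had 1420, 1404 and 1446, against 1414, 1090 and 1417, a log2 fold change of 0.13 ± 0.14 (limma adjusted p = 0.594).

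Crtc3 (GRCm38 chr7:80586627-80688877, minus strand) had 861 and 934 with PF431396, against 2014, 1379 and 1465 in vehicle. Both PF431396 libraries were below all vehicle libraries. Crtc3 fell with a log2 fold change of -0.83 ± 0.22 (limma adjusted p = 0.0302), and -1.36 on the equal-total scale (limma adjusted p = 0.00536). As for Mef2d, leaving out any single library other than vehicle library 1 ended this, with a limma adjusted p of up to 0.125. With PTH the values were 1667, 1633 and 1447, against 2452, 1647 and 1747. In KO they were 1801, 1767 and 1745, against 2546, 1731 and 1839. The groups overlapped in both, and neither log2 fold change passed the threshold (-0.28 ± 0.17 with PTH and -0.18 ± 0.17 in KO, limma adjusted p = 0.362 and 0.443).

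**Figure D3:**
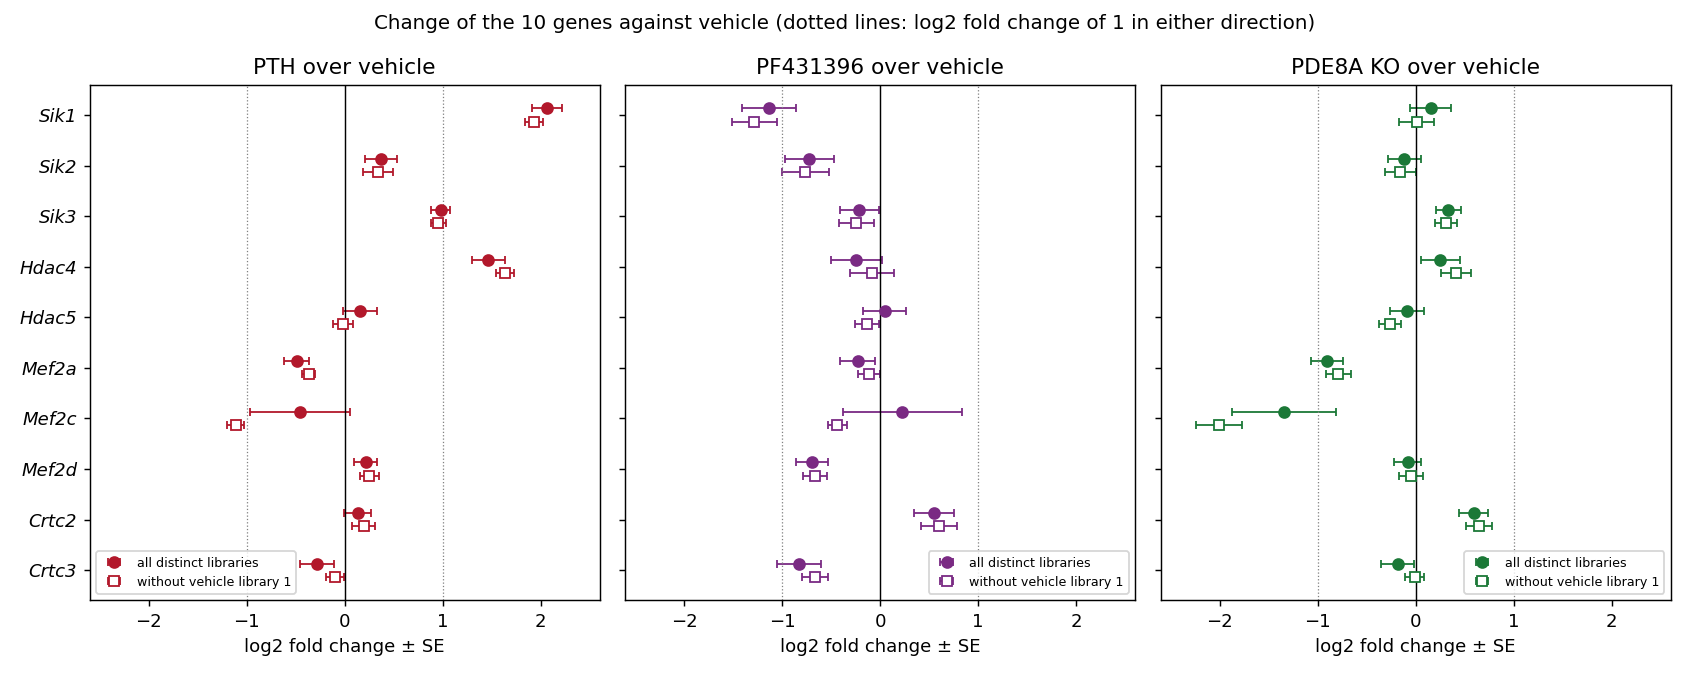
Log2 fold change over vehicle with its SE for the 10 genes, in 1 panel each for PTH, PF431396 and PDE8A KO; filled circles use all distinct libraries, open squares leave out vehicle library 1, and dotted lines mark a log2 fold change of 1 in either direction. Leaving out vehicle library 1 moves Mef2c from -0.45 to -1.11 with PTH, from 0.23 to -0.44 with PF431396 and from -1.34 to -2.01 in KO, and moves the other genes less.

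The order of the genes by level differed between groups, and in part between tables for the same vehicle libraries. Per kilobase of merged exons, vehicle cells in the PTH table had Mef2a highest (658 normalised estimated counts per kilobase), then Mef2c (546), Mef2d (450), Hdac5 (378), Crtc2 (319), Hdac4 (201), Crtc3 (198), Sik1 (183), Sik3 (177) and Sik2 (77.1). Only Crtc2 and Hdac4, and Sik3 and Sik2, were neighbours in this order with no overlap between their ranges over libraries. Without vehicle library 1, Mef2c was first at 726 and did not overlap with Mef2a at 601. With PTH, Sik1 was first at 762 with no overlap, then Hdac4 at 549, ahead of Mef2d at 522 and Mef2a at 466, and Sik2 was again last at 100. The ranges of Hdac4 and Mef2d overlapped. With PF431396, Mef2a (473) and Mef2c (464) were first with overlapping ranges, and Sik1 (73.8) was the last but Sik2 (40.2). In the vehicle libraries of the PF431396 table Mef2a (556) and Mef2c (470) were also first, and Sik1 (162) was at rank 7. Hdac4 was at rank 9 in vehicle there, against rank 6 in the PTH and KO tables. In KO, Crtc2 was first at 519, ahead of Mef2d at 469, and their ranges overlapped, while Mef2c was at 201, with a range that overlapped those of Sik1 (225) and Crtc3 (180). In the vehicle libraries of the KO table Crtc2 was at 347 (rank 5) and Mef2c at 585 (rank 2).

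The responses were then set against each other directly, as differences between the vehicle-relative log2 values of the 3 groups over 11082 genes, which asks where the responses to PTH and PF431396 and the state of the KO cells differ. Sik1 and Hdac4 separated PTH from KO. The PTH response of Sik1 exceeded the KO response by 1.92 ± 0.19 (limma adjusted p = 2.52e-05), and that of Hdac4 by 1.22 ± 0.17 (limma adjusted p = 0.000260). These were the 2 of 10 genes past both thresholds, beside 15.5% of all genes. Sik3, Sik2, Mef2a, Mef2c and Mef2d passed the p threshold alone with positive differences (0.64, 0.49, 0.41, 0.89 and 0.30), and Crtc2 with a negative one (-0.46, limma adjusted p = 0.00505). In total 8 of 10 genes passed the p threshold alone, beside 50.4% of all genes. With 1 library left out the adjusted p in limma was up to 0.161 for Sik2, 0.148 for Mef2d and 0.0671 for Mef2a, and at most 0.0253 for Sik3, Mef2c and Crtc2. The Mef2c difference also passed the fold threshold without KO library 2 or 3, at up to 1.04.

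The PF431396 response of Sik1 was below the KO response by a difference of -1.29 ± 0.21 (limma adjusted p = 0.000384). Mef2c had a PF431396 response above its KO response by 1.57 ± 0.24 (limma adjusted p = 0.000235). These were 2 of 10 genes past both thresholds, beside 33.4% of all genes, and 8 passed the p threshold alone, beside 65.3%. On the equal-total scale 7 of the 10 were past both thresholds, and 4472 of the 11082 genes. Leaving out 1 library took the limma adjusted p of Sik2 to at most 0.120 and that of Hdac4 to at most 0.373. The vehicle libraries serve only to join the tables here, and leaving out library 1 moved the Mef2c difference between PTH and KO to 0.90, against 0.89 with all libraries. Between PF431396 and KO the Mef2c difference lay between 1.28 and 1.73 with any single library left out, and was 1.04 on the equal-total scale (limma adjusted p = 0.00335).

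PTH and PF431396 responses differed past both thresholds in Sik1 (3.20 ± 0.21, limma adjusted p = 1.20e-06), Hdac4 (1.71 ± 0.19, limma adjusted p = 2.92e-05), Sik3 (1.19 ± 0.14, limma adjusted p = 3.93e-05) and Sik2 (1.10 ± 0.20, limma adjusted p = 0.000809). That is 4 of 10 genes, all higher with PTH, beside 35.3% of all genes. The Sik2 difference was under 1 without PTH library 3 or PF431396 library 1, and that of Sik3 without PF431396 library 2. Mef2d (0.91) and Crtc3 (0.55) were higher, and Crtc2 (-0.41) and Mef2c (-0.68) lower, at the p threshold alone (limma adjusted p = 8.67e-05, 0.00191, 0.0105 and 0.0259). Leaving out 1 library took the adjusted p to at most 0.0534 for Crtc2 and 0.121 for Mef2c in limma. These 4 genes and the 4 above are 8 of 10 genes, beside 67.5% of all genes. On the equal-total scale the Crtc2 difference was 0.00.

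**Figure D4:**
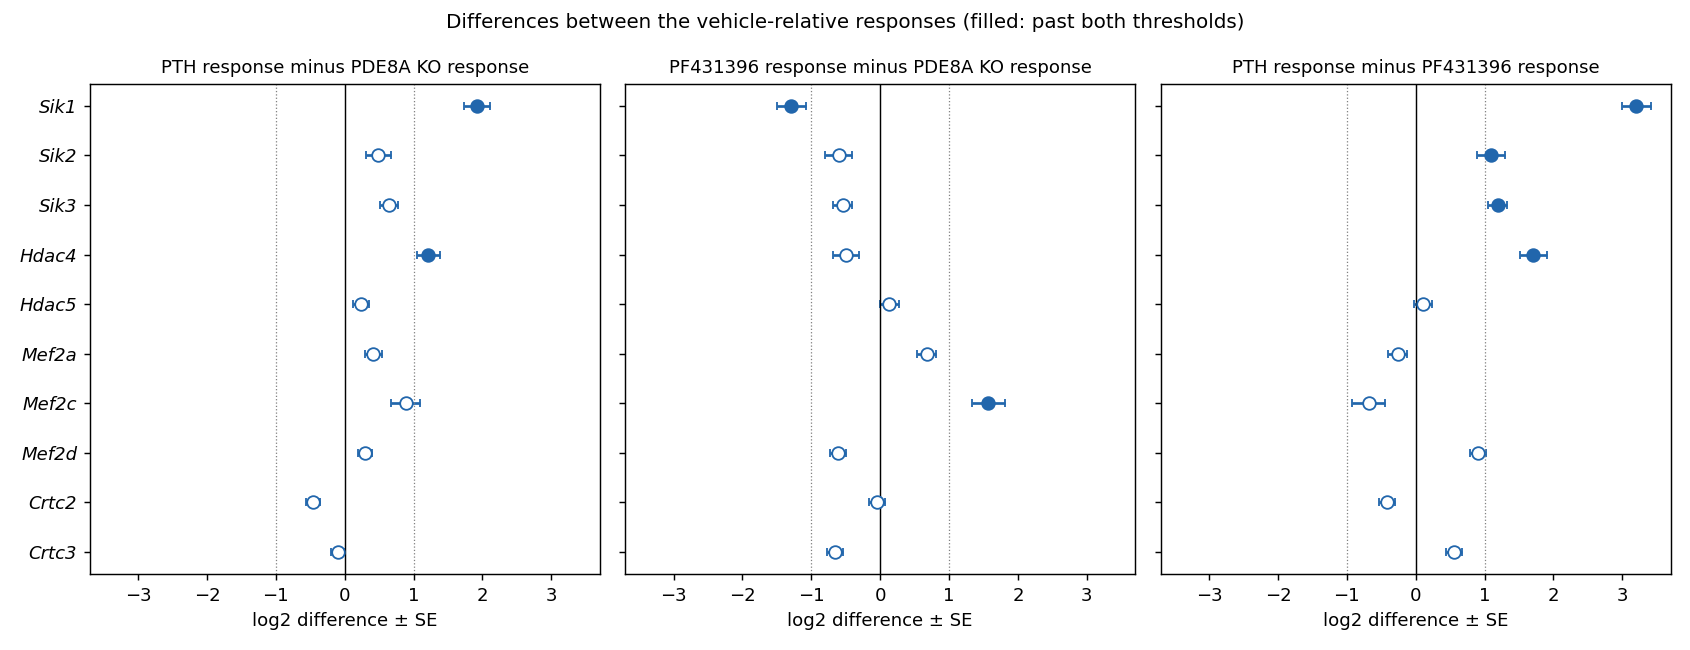
Differences between vehicle-relative responses, on the log2 scale with SE, for the 10 genes: PTH minus PDE8A KO, PF431396 minus PDE8A KO and PTH minus PF431396, with filled circles past both thresholds. Sik1 is past both thresholds in each panel (1.92, -1.29 and 3.20), Hdac4 in the panels with PTH and KO and with PTH and PF431396 (1.22 and 1.71), and Mef2c in that of PF431396 and KO (1.57).

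The other genes of the 4 families were not all listed in every table. Crtc1 and Hdac7 were listed in every table, Hdac9 in the PTH and PF431396 tables and Mef2b in the KO table. Hdac7, which encodes another class IIa HDAC, had 3025, 3134 and 3071 with PTH, against 1594, 1902 and 1975 in vehicle. It rose at the p threshold alone, with a log2 fold change of 0.76 ± 0.12 (limma adjusted p = 0.0107, and up to 0.0701 with 1 library left out). Hdac9 had 25.4, 52.9 and 22.6 with PTH, against 29.6, 227 and 189 in vehicle, so that vehicle library 1 was low for this gene as it was for Mef2c. Its log2 fold change was -1.77 ± 0.79 (limma adjusted p = 0.226), and -2.69 ± 0.40 without vehicle library 1 (limma adjusted p = 0.00143). Crtc1 had 725, 728 and 801 in KO, against 1105, 1267 and 1318 in vehicle, a log2 fold change of -0.71 ± 0.14 (limma adjusted p = 0.00941, and up to 0.0503 with 1 library left out) in the direction opposite to Crtc2.

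Upstream of the SIKs, none of the 5 LKB1 complex genes was called in any comparison. At the p threshold alone, Stk11, which encodes LKB1, was higher with PTH (0.62 ± 0.10, limma adjusted p = 0.0128), beside 7.71% of all genes. With PF431396 it was also higher (0.68 ± 0.16, limma adjusted p = 0.0201) and Cab39 lower (-0.52, limma adjusted p = 0.0411), beside 37.1%. In KO, Cab39l was higher (0.51, limma adjusted p = 0.0218), beside 27.8%. Among the AMPK-related kinases, relatives of the SIKs that LKB1 also activates, Nuak1 was called lower in each comparison. Nuak1 had 1897, 1803 and 1154 with PTH, against 3800, 5846 and 6335 in vehicle, a log2 fold change of -1.72 ± 0.26 (limma adjusted p = 0.0105). With PF431396 it was -1.05 ± 0.25 (limma adjusted p = 0.0208) and in KO -2.08 ± 0.23 (limma adjusted p = 0.00103). These comparisons share the vehicle libraries, and the PF431396 call was lost without vehicle library 2 or 3 or either PF431396 library (-1.29 to -0.91). Prkaa2, which encodes an AMPK catalytic subunit, was called lower with PTH (-1.43) and in KO (-2.07), Brsk1 higher in KO (1.95) and Mark4 lower with PF431396 (-1.14). The PTH call of Prkaa2 was lost without any single library except vehicle library 1 (-1.64 to -1.16, limma adjusted p of up to 0.182), and that of Mark4 without vehicle library 1 (-0.92) or either PF431396 library. In all, 0 of 11 listed genes were called higher and 2 lower with PTH, beside 3.87% of all genes, 0 and 2 with PF431396, beside 26.2%, and 1 and 2 of 10 in KO, beside 11.5%. Leaving out vehicle library 1 added Brsk1 with PTH (1.37, limma adjusted p = 0.00208, against 1.08 and 0.0802 with all libraries) and Nuak2 in KO (1.23, limma adjusted p = 0.000816, against 0.99 and 0.0256). With PF431396 it added Melk (-1.26, limma adjusted p = 0.0206, against -1.01 and 0.0672), and Mark4 lost its call, so that the count stayed at 2.

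The PTH receptor gene Pth1r had 344, 370 and 322 in KO, against 1204, 10083 and 11261 in vehicle, a log2 fold change of -3.90 ± 0.76 (limma adjusted p = 0.00960). All KO libraries were below even vehicle library 1. Without that library the KO value was -4.95. With PTH, Pth1r was at 0.02 ± 0.79 (limma adjusted p = 0.991) with all vehicle libraries and was called lower at -1.02 without library 1. With PF431396 it was at -0.11 ± 0.94 (limma adjusted p = 0.939) and was called lower at -1.16 without library 1, so both calls rest on leaving out that library. The sign with PTH also turned negative, uncalled, without PTH library 1 (-0.061) and on the equal-total scale (-0.094). Of the 6 PKA subunit genes, Prkar2b, which encodes a regulatory subunit, was called higher with PF431396 (1.41 ± 0.24, limma adjusted p = 0.00758) and in KO (1.36 ± 0.18, limma adjusted p = 0.00211), beside 26.2% and 11.5% of all genes called. No subunit was called with PTH. Only Prkar1a passed the p threshold alone with PTH (0.55 ± 0.09, limma adjusted p = 0.0167). Prkar1b, another regulatory subunit gene, was at -0.97 in KO and was called at -1.15 without vehicle library 1. The PF431396 call of Prkar2b was lost without PF431396 library 2 (limma adjusted p = 0.0503) and on the equal-total scale, where the value was 0.87.

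Downstream of the SIKs, 2 of 7 genes for 14-3-3 proteins, the proteins that hold phosphorylated class IIa HDACs and CRTCs, were called lower with PF431396, where 15.2% of all genes were called lower, and none was called with PTH or in KO. Ywhah changed by -1.86 ± 0.20 and Ywhag by -1.46 ± 0.16 (limma adjusted p = 0.00287 and 0.00300). Ppp2ca, a catalytic subunit gene of the phosphatase PP2A, was 1 of 6 phosphatase genes called, lower with PF431396 (-1.13 ± 0.13, limma adjusted p = 0.00303). With PTH, Ppp2ca was higher at the p threshold alone (0.56 ± 0.09, limma adjusted p = 0.0122). Among other class IIa HDAC kinases, Prkd2 was called lower with PF431396 (-1.06) and Camk2a lower in KO (-1.75 ± 0.29, limma adjusted p = 0.00493). Camk2a was at -1.34 with PTH (limma adjusted p = 0.0806), and was called at -1.49 without vehicle library 1 (limma adjusted p = 0.0180). The Prkd2 call was lost when any single library was left out (-1.18 to -0.90). Of the CREB family and its coactivators, Crem was called higher with PTH (1.47 ± 0.31, limma adjusted p = 0.0358), with 447, 293 and 613, against 168, 121 and 182 in vehicle. Leaving out 1 of vehicle libraries 2 and 3, or 1 of PTH libraries 1 and 3, ended the Crem call, with values between 1.22 and 1.75. Creb3l1 was at -1.47 in KO (limma adjusted p = 0.0712), and was called at -2.17 without vehicle library 1 (limma adjusted p = 3.52e-06). No gene of the HDAC3 and NCoR/SMRT complex, the corepressor that class IIa HDACs recruit, was called in any comparison. Pde8a itself was called higher with PTH (1.26 ± 0.11, limma adjusted p = 0.00101), at 6474, 6702 and 6592, against 3019, 2481 and 2779 in vehicle. Sost and Tnfsf11, the endpoints of this pathway, were not listed in any table and were not analysed here.

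Genes whose profile was most like that of Sik1 or Hdac4 were ranked by Pearson correlation of vehicle-relative log2 values over the 11 distinct libraries, given as a description since the libraries share their groups. For Sik1 these were Arl4d (r = 0.985), S1pr1 (r = 0.981) and Cebpd (r = 0.975), with log2 fold changes of 2.92, 4.00 and 3.47 with PTH and -1.67, -1.84 and -0.82 with PF431396. For Hdac4 they were Gpd2 (r = 0.976), Ndc1 (r = 0.970) and Epha2 (r = 0.961), with 1.64, 0.98 and 1.36 with PTH and 0.04, 0.01 and 0.01 with PF431396.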

How the data were processed

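Total RNA of Ocy454 cells was sequenced in 12 samples, grouped by genotype and treatment as labelled. The submitters' processing notes name FastQC 0.11.5, Salmon, DESeq2 and the build GRCm38, and no version of Salmon or DESeq2 was found. Each of the 3 tables that the authors deposited holds 1 group beside the vehicle libraries and was scaled on its own. The ratio of the same vehicle libraries between tables also differed by gene. Between the PTH and PF431396 tables its log2 value had an SD over genes of 0.12, with Hdac4 at 0.50 and Mef2d at 0.03. The per-library signal that the authors deposited is a normalised estimated count: every value was a whole multiple of 1 factor per library, within 0.02. The deposited log2 fold changes and the deposited adjusted p-values are the authors' and are quoted by name in 1 paragraph.

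The group comparisons used limma 3.58.1 (R 4.3.3, statmod 1.5.0; trend, robust variance) on log2(value + 1). A fit held 2 groups and no covariate, and p-values were adjusted by Benjamini-Hochberg over all genes of the table. Thresholds were those of the series' design: adjusted p below 0.05 and an absolute log2 fold change of at least 1. Direct differences between responses were fitted over the 11082 genes of all 3 tables, after subtracting each table's vehicle mean. Rows without a gene name (8 in the PTH table, 6 in the PF431396 table and 8 in the KO table) were left out. The fits were tested on simulated data. Gene positions and merged exon lengths came from the GENCODE annotation of GRCm38, and promoters from RefSeq. Figures were drawn with matplotlib 3.10.9 in Python 3.11.15.

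The 10 genes and the gene lists were chosen with earlier results of these data known. Named genes are all 10, every called gene of the pathway lists, Sost, Tnfsf11, Pth1r and Pde8a, and, for each of the 10 that was called, the 3 most correlated genes whose mean level was 100 or more in every table. Hdac7, Hdac9, Crtc1 and Mef2b, relatives of the 4 families, the marker genes, and genes called only without vehicle library 1 were named after their values were seen. Alternatives were a pseudocount of 10, a minimum mean of 100, equal totals, limma without trend and robust variance, a replicate block, the p threshold alone, all 3 PF431396 libraries, and each library left out. For genes outside the 10, these alternatives were added after the data were seen.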

Additional observations from a re-analysis of the deposited data

How the results depend on the processing

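Of the alternative values for the 10 genes against vehicle, 335 kept direction and call, 12 gained a call, 4 lost it and 9 changed sign. Most of the 335 were of genes uncalled in the main fits, which called 2 genes with PTH, 1 with PF431396 and none in KO. The 4 losses were all of Sik1 with PF431396. For differences between responses the same numbers were 448, 24, 3 and 5. With single libraries left out, Hdac5 ranged from -0.016 to 0.27 with PTH, -0.13 to 0.17 with PF431396 and -0.26 to 0.033 in KO, Hdac4 from -0.55 to 0.059, Mef2c from -0.44 to 0.58 and Hdac9 from -0.20 to 1.26 with PF431396, Sik1 from -0.0038 to 0.33 in KO, Crtc2 from -0.15 to 0.061 between PF431396 and KO, Hdac5 from -0.018 to 0.23 between PTH and PF431396, and Pth1r from -1.02 to 0.58 with PTH and -1.16 to 0.46 with PF431396 (0.46 under the replicate block). Equal totals turned Hdac5 to -0.49, Mef2c to -0.31, Hdac7 to -0.051, Crtc1 to -0.37 and Pde8a to -0.055 with PF431396, Pth1r to -0.094 with PTH, the Hdac5 difference between PF431396 and KO to -0.40, and the differences between PTH and PF431396 of Mef2a to 0.15 and of Crtc2 to 2.02e-05, on a scale that moves all genes. Equal totals also gave 4 called genes of the 10 with PF431396, all lower, beside 3814 of all 11484 genes called and 3470 called lower. They gave 7 of the 10 differing between PF431396 and KO, beside 4472 of 11082 genes. At the p threshold alone, 908 genes passed with PTH and 3223 in KO, and of the 10 genes 3 passed with PF431396 and 2 in KO, and 8 differed in each pair of responses. The cause of these moves was not tested beyond that shift.

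Leaving out single libraries gave 219 to 614 called genes with PTH, 1756 to 2917 with PF431396 and 967 to 1405 in KO. Of the 10 genes it gave 2 to 3 calls with PTH, 0 to 1 with PF431396 and 0 to 1 in KO, and 2 to 3 differing between PTH and KO and 3 to 4 between PTH and PF431396. Whether the replicate numbers of the labels pair the libraries was checked by correlating deviations of same-numbered libraries over genes. With PTH these were -0.030, -0.048 and 0.032, and no library correlated best with its own number. In KO they were 0.099, 0.062 and 0.071, weak, but each library correlated best with its own number. With PF431396 they were -0.0069 and -0.018, but deviations of only 2 libraries mirror each other, so the check cannot decide there. With the replicate block, 403, 2749 and 1305 genes were called with PTH, with PF431396 and in KO. Under the block 0 of the 10 genes were called with PF431396 (Sik1 at -1.10, limma adjusted p = 0.0689) and 1 in KO (Mef2c, limma adjusted p = 0.0186). The edgeR and DESeq2 fits on recovered counts were not run, since genes with low counts are not listed. That floor, 11 estimated counts, and groups of 2 or 3 libraries limit precision.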
